A study of Mus musculus with 16 samples.

Results

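Sin3b encodes a scaffold protein that does not bind DNA by itself. It is brought to genes by transcription factors such as REST, the MXD proteins and the E2F repressors, and it holds the histone deacetylases HDAC1 and HDAC2 at those genes, so the complex is known mainly for keeping transcription low. The 6 libraries described here are the KPC1199 cells that were not given IFNγ in an experiment on that cytokine: 3 carry the control guide (sgCtrL) and 3 carry a guide against Sin3B (Sin3Bsg1), out of 16 libraries in the series. They were chosen by their labels alone. KPC1199 is a mouse pancreatic ductal adenocarcinoma (PDAC) line grown from a spontaneous tumor of a KPC mouse (a genetic model of this tumor, with Pdx-cre driving recombination), so both groups carry the same tumor alleles, a mutant Trp53 among them. Cas9 and the guides were delivered by lentivirus and the cells were selected with puromycin. Neither the labels nor the methods say whether Sin3Bsg1 is 1 clone or a pool, or whether the replicates were separate cultures. The p-values below thus measure a spread between libraries that may be technical. For the main comparison this spread was estimated over all 12 libraries of that experiment, those with IFNγ included. The comparison asks which transcripts differ between Sin3B-deficient and control tumor cells before any IFNγ is added. Beside it stand the 6 libraries of the same experiment given 10 ng/ml IFNγ for 24 hours (3 of each guide), and a separate experiment on untreated cells with 2 libraries of each guide.

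The guide is shown because it marks where the gene was cut. It has 20 bases, printed 5′ to 3′ in lower case with the adjoining PAM of the genome in capitals, and it matched the GRCm39 genome once, at chr8:73449982-73450001 on the plus strand. This lies in coding sequence of exon 1 of the 19 exons of Sin3b (gene at chr8:73449880-73484833).
Sin3Bsg1: tggctcccgctggggtcgttCGG

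The targeted gene was lower in each Sin3Bsg1 library. Sin3b (ENSMUSG00000031622) stood at 93.2, 95.6 and 88.5 CPM in sgCtrL and 39.3, 38.6 and 39.4 CPM in Sin3Bsg1, in CPM, the usual unit of counts scaled to the library total. The groups did not overlap, and the mean fell from 92.4 ± 3.61 to 39.1 ± 0.412 CPM (SD, n = 3; log2 fold change -1.24, standard error 0.052, edgeR adjusted p = 5.104e-10). A frameshift need not remove the transcript, so the remaining RNA does not measure the protein. Sin3a, the paralog that forms a complex of its own, averaged 98.2 ± 3.33 and 88.9 ± 1.87 CPM (SD, n = 3) and did not pass the threshold of 0.05 on the adjusted p (log2 fold change -0.14, edgeR adjusted p = 0.0674), although it did in the fit on these 6 libraries alone.

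The estimated counts summed to between 18128055 and 25459300 per library, and 14913 genes passed the filter on low counts. The label of a pancreatic tumor cell was checked against 5 marker lists. The 8 epithelial markers summed to 3111 to 3161 CPM in sgCtrL and 3461 to 3548 CPM in Sin3Bsg1, although Cldn4 had no count in any of the 6 libraries and Epcam stayed at 6.36 and 7.16 CPM. The 12 fibroblast markers summed to 267 to 275 CPM in sgCtrL and 233 to 245 CPM in Sin3Bsg1, most of it Pdgfra (233 and 194 CPM), while Thy1 and Postn were at 0 throughout. Markers of leukocytes summed to at most 7.10 CPM, with 5 of 10 at 0 in all 6 libraries, those of endothelium to at most 1.77 CPM, with 3 of 6 at 0, and those of acinar and islet cells to at most 6.598 CPM, with 8 of 9 at 0. RNA came from whole cultures, so a change in the share of cells that express a gene and a change in the RNA of each cell cannot be told apart.

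Of the 14913 genes tested, 2568 changed (17.2%), and of these 1177 were higher in Sin3Bsg1 (7.89% of the genes tested) and 1391 lower (9.33%). The 3 libraries of each group did not overlap for 5843 genes (39.2%). Most of the changes were small, with a median size of 0.35 on the log2 scale among the genes called. A change of 2-fold or more was found for 242 higher and 180 lower genes, and of 4-fold or more for 64 and 39. The median log2 fold change of all genes tested was -0.0090. Counts of called members in the gene lists below stand against the 17.2% called among all genes. The fit on these 6 libraries alone called 3996 genes, and the fit without sgCtrL with IFNγ replicate 1, a library that stood apart from its group, called 3529. When each of the 6 libraries was left out in turn, 1864 to 2066 genes were called. A call that is said below to have held was made in each of those 6 fits, all of which kept the libraries with IFNγ.

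By the rule for named genes (a mean of 5 CPM or more in the higher group and no overlap between groups), the 12 largest were Plxdc2, Fcgbp, Nhs, Reg3b, Serpina3n, Tenm1, Reg3g, Pik3ap1, Ces2a, Prph, Stra6 and Myom3. Plxdc2, a plexin-domain membrane receptor, had 0.485, 0.459 and 0.802 CPM in sgCtrL and 5.03, 4.74 and 6.19 CPM in Sin3Bsg1 (log2 fold change 3.198, standard error 0.24, edgeR adjusted p = 1.405e-07). Fcgbp, a large protein of mucus, had 3.07, 3.09 and 2.299 CPM in sgCtrL and 22.4, 19.3 and 19.5 CPM in Sin3Bsg1 (log2 fold change 2.85, standard error 0.14, edgeR adjusted p = 1.92e-09). Serpina3n, a secreted serine protease inhibitor of the acute phase, had 1.29, 2.38 and 1.71 CPM in sgCtrL and 10.2, 8.22 and 8.94 CPM in Sin3Bsg1 (log2 fold change 2.32, standard error 0.20, edgeR adjusted p = 7.31e-07). For each of these 3 genes the lowest Sin3Bsg1 library was more than 3 times the highest control library. Pik3ap1, an adaptor of PI3K signalling, rose from 8.49 to 37.1 CPM, and Stra6, the cell-surface receptor for retinol-binding protein, from 3.84 to 14.1 CPM.

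The largest falls were headed by 4 regulators of embryonic development. The 12 were Sall3, Hhip, Sall1, Gli3, Greb1, Pcdh19, Pcsk5, Pde11a, Kcnf1, Olfml2b, Fstl1 and Fam171b. Sall1, a zinc-finger repressor of embryonic organ development that recruits the NuRD deacetylase complex, had 14.02, 14.4 and 12.6 CPM in sgCtrL and 1.71, 1.78 and 1.59 CPM in Sin3Bsg1 (log2 fold change -3.01, standard error 0.13, edgeR adjusted p = 5.104e-10). Its relative Sall3 had 9.81, 8.89 and 8.39 CPM in sgCtrL and 0.723, 1.001 and 1.204 CPM in Sin3Bsg1 (log2 fold change -3.21, standard error 0.19, edgeR adjusted p = 1.002e-08). Both SALL genes were far lower in every Sin3Bsg1 library than in any control library. The rule for named genes had asked for groups that do not overlap. Pcdh19, a cell adhesion protocadherin, fell from 18.4 to 3.896 CPM. Olfml2b, an olfactomedin-domain protein of the matrix, fell from 21.6 to 5.54 CPM.

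Among genes with a change of 2-fold or more, those with the most counts in sgCtrL included epithelial secretory and surface genes that rose. Clu, the extracellular chaperone clusterin, had 299, 314 and 307 CPM in sgCtrL and 1062, 1066 and 997 CPM in Sin3Bsg1 (log2 fold change 1.76, standard error 0.061, edgeR adjusted p = 7.79e-11). It had the most counts of all genes that changed this far. Tmprss2, a membrane serine protease of epithelia, had 116, 112 and 113 CPM in sgCtrL and 234, 229 and 232 CPM in Sin3Bsg1 (log2 fold change 1.03, standard error 0.043, edgeR adjusted p = 5.104e-10). Clca3b, a secreted protein of the family of calcium-activated chloride channel regulators, rose from 88.8 to 185 CPM. In the other direction Lmbr1, whose introns hold a limb enhancer of Shh, fell from 58.8 to 27.4 CPM, and Pwwp3b from 60.6 to 28.7 CPM.

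**Figure D1:**
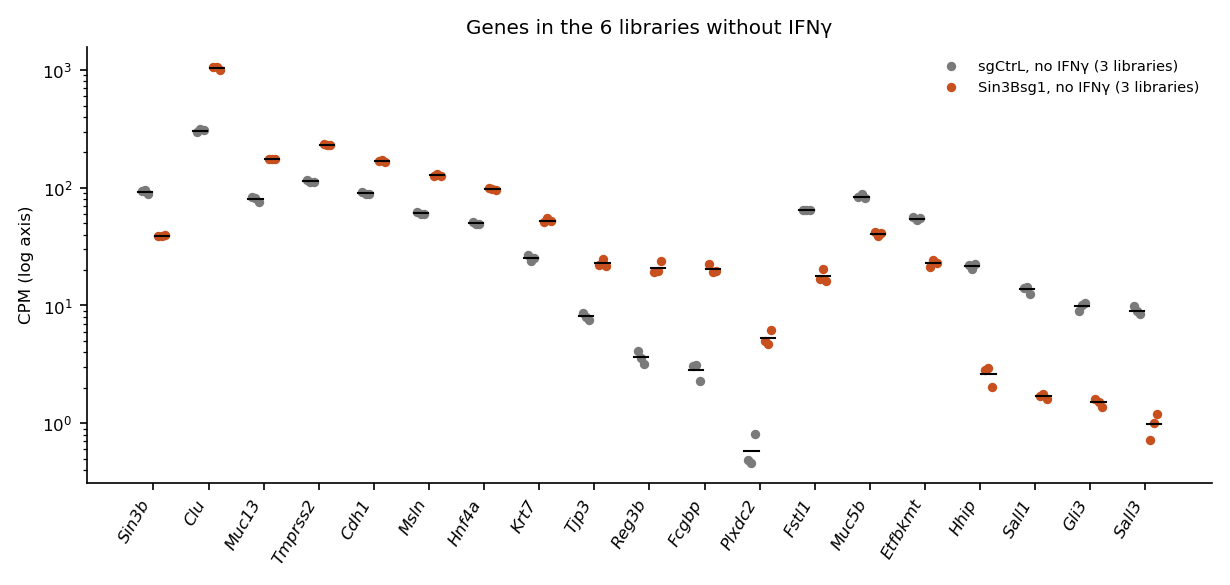
CPM of 19 genes on a log axis in the 3 sgCtrL libraries (grey) and the 3 Sin3Bsg1 libraries (orange) without IFNγ, with a bar at each group mean. For each gene drawn the groups do not overlap, from Clu at about 306 and 1041 CPM to Sall3 at 9.03 and 0.976 CPM. Some of the genes were chosen by a rule that asks for this, and 39.2% of all genes tested show it.

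Transcription factors of the pancreas and foregut moved mostly upwards. The list holds 30 genes, of which 21 were tested, and 13 rose and 1 fell, with a median log2 fold change of 0.54. Calls for 9 of the 13 rises held, and the fall of Cdx2 (-0.21) was lost in each fit but the one without sgCtrL replicate 1. With at least 10 counts required in every library, 16 were tested, 8 rose and 1 fell, and the median was 0.20. Hnf4a, a nuclear receptor that sets the identity of gut, liver and classical-type pancreatic tumor cells, had 51.3, 49.5 and 49.5 CPM in sgCtrL and 98.9, 98.2 and 95.3 CPM in Sin3Bsg1 (log2 fold change 0.96, standard error 0.057, edgeR adjusted p = 1.36e-08). Its paralog Hnf4g rose from 3.18 to 6.23 CPM. Klf5, a Krüppel-like factor of proliferating epithelium, had 125, 136 and 121 CPM in sgCtrL and 217, 215 and 204 CPM in Sin3Bsg1 (log2 fold change 0.74, standard error 0.069, edgeR adjusted p = 1.94e-06). Gata4, a GATA factor of foregut endoderm, had 5.45, 5.301 and 6.04 CPM in sgCtrL and 14.6, 15.1 and 12.9 CPM in Sin3Bsg1 (log2 fold change 1.34, standard error 0.10, edgeR adjusted p = 2.33e-07). In these 4 genes every knockout library was above every control library, while groups without overlap, in either direction, were seen for 39.2% of all genes tested. The ETS factors of epithelium rose less, Elf3 from 29.1 to 42.4 CPM and Ehf from 66.6 to 97.2 CPM, and Foxa2, a pioneer factor of endoderm, from 30.6 to 39.6 CPM. The list also carries Tff2, a trefoil peptide of gastric mucus. Tff2 had 0 or 1 count in each sgCtrL library and 15 to 28 counts in each Sin3Bsg1 library (edgeR adjusted p = 4.49e-04). Of the 14 genes called, the 13 other than Tff2, which was not tested there, had the same direction in the untreated experiment.

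Keratins and junction genes of epithelium showed the same direction. Of 29 tested of 40 listed, 13 rose and 2 fell, with a median log2 fold change of 0.20, and the calls of 9 rises and 1 fall held. Cdh1, E-cadherin, the adhesion molecule of epithelial cells, had 91.8, 88.6 and 88.4 CPM in sgCtrL and 169, 172 and 166 CPM in Sin3Bsg1 (log2 fold change 0.92, standard error 0.067, edgeR adjusted p = 1.25e-07). Krt7, a keratin of ducts, had 27.02, 23.96 and 25.4 CPM in sgCtrL and 50.8, 54.8 and 52.4 CPM in Sin3Bsg1 (log2 fold change 1.05, standard error 0.081, edgeR adjusted p = 2.22e-07). Krt20, a keratin of gastric and intestinal epithelium, had 68.9, 69.8 and 73.05 CPM in sgCtrL and 142, 137 and 142 CPM in Sin3Bsg1 (log2 fold change 0.996, standard error 0.046, edgeR adjusted p = 1.07e-09). All 3 were close to double their control level, with a narrow spread in each group. Tjp3, a scaffold of tight junctions, rose from 8.06 ± 0.571 to 22.9 ± 1.65 CPM (SD, n = 3), Cldn3 from 14.9 to 26.5 CPM, and Itgb4, the integrin of hemidesmosomes, from 42.7 to 71.3 CPM. The claudin Cldn2 went the other way (486 to 426 CPM, log2 fold change -0.19). Genes of the epithelial-mesenchymal transition divided. Esrp2, a splicing regulator of epithelia, rose from 5.398 to 10.5 CPM, and Zeb1, a repressor of Cdh1, fell from 69.8 to 61.3 CPM (log2 fold change -0.19). Of the 20 such genes tested 3 rose and 3 fell, 30% against 17.2% called among all genes. The 3 falls, Zeb1, Zeb2 (-0.21) and Twist1 (-0.43), were small. None of those falls held, since without sgCtrL replicate 1, and again without Sin3Bsg1 replicate 2, the adjusted p was above 0.05 for each of the 3. Zeb1 lost its call in every fit but the one without sgCtrL replicate 3, Twist1 also without Sin3Bsg1 replicate 3, and over the 6 fits it reached 0.149 for Zeb1, 0.0619 for Zeb2 and 0.195 for Twist1.

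The promoters of the strongly changed genes were searched for the HNF4 motif CAAAGTCCA on both strands, because Hnf4a is among the genes that rose. Promoters from RefSeq (GRCm38.p6, 250 bases before to 50 after each start) were matched by symbol for 10582 of the genes tested, among them 167 that were 2-fold or more higher and 122 that were 2-fold or more lower. The motif was found for 8 of the higher genes (4.79%), for 3 of the lower genes (2.46%) and for 0.529% of all 10582. The windows of the higher genes are printed because they show what flanks the motif. In bases from the start of the gene, the motif centre lay between -182 (Muc13) and 19 (Pipox). Each has 29 bases, written 5′ to 3′ on the strand of the motif, with the motif in capitals and GRCm38.p6 positions.
Muc13, chr16:33794293-33794321, minus strand: atccttgactCAAAGTCCAggacaactgt
Cdcp1, chr9:123216178-123216206, plus strand: gttcctttctCAAAGTCCAaaagactttg
Trim31, chr17:36897990-36898018, minus strand: gacgaagtgaCAAAGTCCActcaggtgta
Slc3a1, chr17:85028298-85028326, plus strand: cttggctggaCAAAGTCCAgccatgatta
Pipox, chr11:77893839-77893867, plus strand: aggagggaggCAAAGTCCAgctaaactag
Pilra, chr5:137836334-137836362, minus strand: ggggctgggcCAAAGTCCAgttatgttgt
The window of Pilra is identical in its tandem copies Pilrb1 and Pilrb2, so these 3 genes are not independent, and their counts could be split between near-identical copies. Muc13 rose from 80.5 to 175 CPM, Cdcp1, a transmembrane substrate of SRC kinases, from 4.04 to 12.3 CPM, and Pilra, an inhibitory receptor, from 7.48 to 18.4 CPM. Trim31, Slc3a1 and Pipox stayed under 2 CPM in every library. The call of Slc3a1 was lost without sgCtrL replicate 3, Sin3Bsg1 replicate 1 or Sin3Bsg1 replicate 2, and that of Pipox without sgCtrL replicate 2. The 3 lower genes with the motif were Pde11a, Coro2b and Tlcd4. A match is a description of the letters and does not show binding.

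The same promoters were searched for other motifs. The E-box CACCTG, the type read by SNAI and ZEB factors, was in the promoters of 34.1% of the higher, 30.3% of the lower and 20.9% of all genes. The TATA box TATAAA was in 16.8%, 16.4% and 9.22%. The GATA motif AGATAAG was in 6.59% of the higher, 0.82% of the lower and 2.32% of all genes, and the AP-1 motif TGACTCA in 7.19%, 10.7% and 4.81%. The E2F motif TTTCGCGC was in the promoter of none of the higher or lower genes and of 0.756% of all. The MYC and MAX E-box CACGTG was in 8.98%, 4.92% and 11.4%, and the SP and KLF motif GGGGCGGGG in 13.2%, 18% and 24.2%. The strongly changed genes had fewer CpG dinucleotides, with medians of 8 in the higher and 14.5 in the lower genes against 22 in all, counted in the richest promoter of each gene. All 8 motifs were searched on both strands, no motif contains another, they were chosen with the results known, and no test was made.

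Mucins, antimicrobial lectins and other secretory genes changed in both directions. Of 18 tested of 28 listed, 8 rose, 3 fell and 7 were not called, with a median log2 fold change of 0.30, and all calls held but the fall of Slpi (-0.32), which was lost without sgCtrL replicate 1, Sin3Bsg1 replicate 2 or Sin3Bsg1 replicate 3. Muc13, a transmembrane mucin, had 84.02, 81.4 and 76.2 CPM in sgCtrL and 176, 175 and 174 CPM in Sin3Bsg1 (log2 fold change 1.12, standard error 0.049, edgeR adjusted p = 5.104e-10). Msln, mesothelin, a surface antigen of pancreatic tumors, had 61.7, 60.3 and 60.3 CPM in sgCtrL and 127, 131 and 126 CPM in Sin3Bsg1 (log2 fold change 1.08, standard error 0.052, edgeR adjusted p = 1.78e-09). Reg3b, a bactericidal C-type lectin also induced in pancreatitis, had 4.098, 3.59 and 3.21 CPM in sgCtrL and 19.2, 19.8 and 23.6 CPM in Sin3Bsg1 (log2 fold change 2.52, standard error 0.19, edgeR adjusted p = 1.41e-07). Its neighbor Reg3g rose from 2.04 ± 0.2901 to 9.27 ± 1.07 CPM (SD, n = 3), and these paralogs could share reads. The transmembrane mucins Muc1 (68.6 to 88.6 CPM) and Muc4 (6.07 to 11.2 CPM) rose by less. Against this direction stood Muc5b, a gel-forming mucin of airway and gastric glands, with 82.7, 88.3 and 81.5 CPM in sgCtrL and 42.2, 38.98 and 41.3 CPM in Sin3Bsg1 (log2 fold change -1.04, standard error 0.10, edgeR adjusted p = 2.79e-06). Muc5ac, the gel-forming mucin beside it on chromosome 7, had 10.6, 12.5 and 11.1 CPM in sgCtrL and 4.42, 3.87 and 3.78 CPM in Sin3Bsg1 (log2 fold change -1.498, standard error 0.18, edgeR adjusted p = 2.54e-05). For both, the highest Sin3Bsg1 library lay well under the lowest control library.

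**Figure D2:**
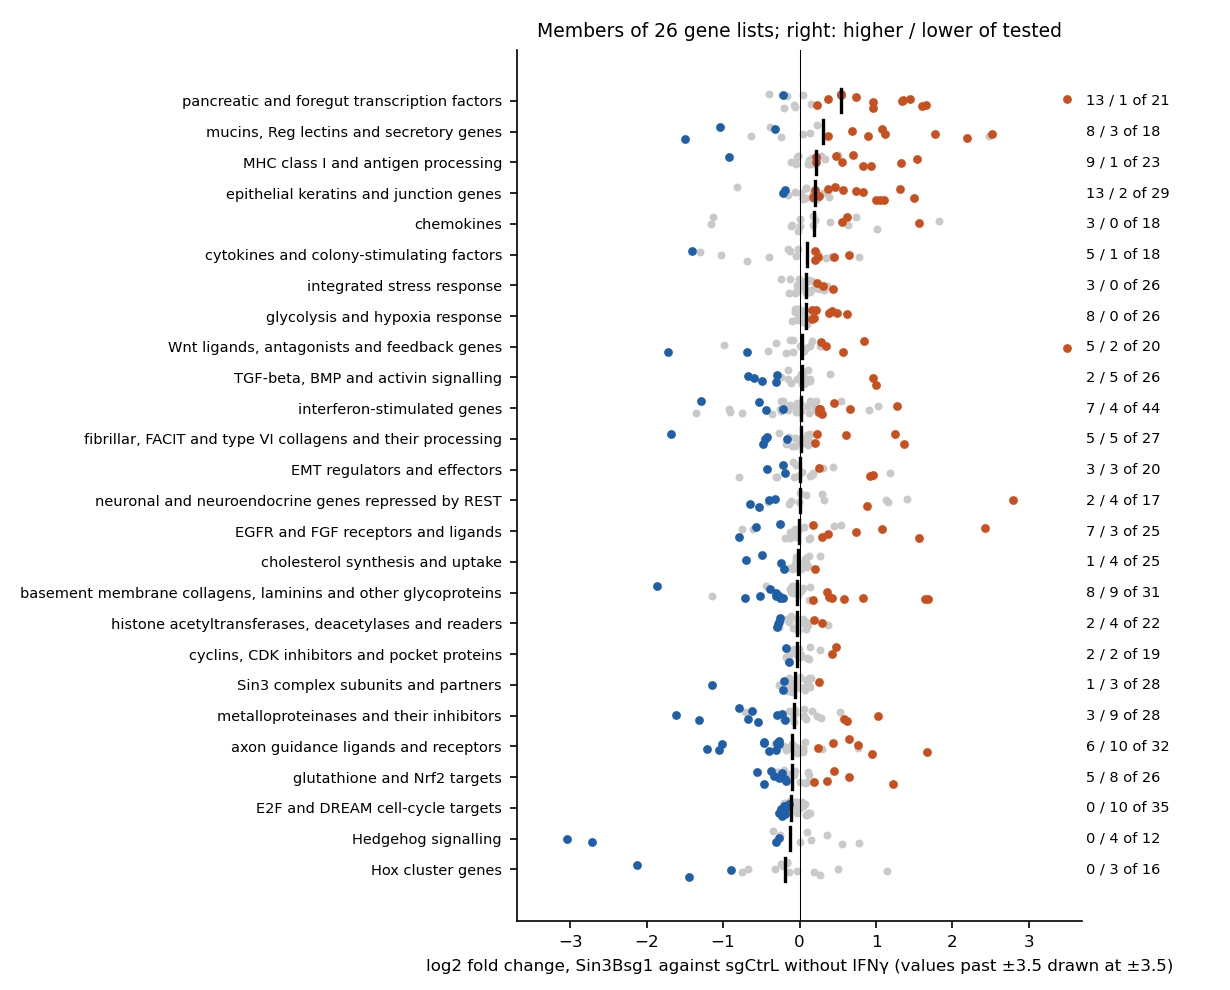
Log2 fold change of each tested member of 26 gene lists, Sin3Bsg1 against sgCtrL without IFNγ (3 libraries a group), with members called higher in orange, called lower in blue and not called in grey. Black bars are list medians and the numbers at the right give higher / lower of tested. The median of the pancreatic and foregut transcription factors is 0.54 and that of the Hox genes -0.19 (0.20 and -0.19 with at least 10 counts in every library).

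The interstitial collagens went both ways. Of 27 tested genes of fibrillar, FACIT and type VI collagens and their processing, 5 rose and 5 fell, with a median log2 fold change of 0.016. Col3a1, the chain of type III collagen, had 1151, 1118 and 1109 CPM in sgCtrL and 812, 820.5 and 839 CPM in Sin3Bsg1 (log2 fold change -0.45, standard error 0.049, edgeR adjusted p = 8.17e-06). Col1a1, the major chain of type I collagen, had 12.2, 12.2 and 10.6 CPM in sgCtrL and 29.7, 30.8 and 30.3 CPM in Sin3Bsg1 (log2 fold change 1.37, standard error 0.081, edgeR adjusted p = 1.23e-08). Every Sin3Bsg1 library was thus below the controls for Col3a1 and above them for Col1a1. Col12a1, a FACIT collagen, fell from 7.07 to 2.203 CPM, and Col11a2 rose from 2.33 to 5.57 CPM. Among 31 basement membrane and matricellular genes 8 rose and 9 fell (median -0.027). Fstl1, a secreted glycoprotein that binds BMP and activin ligands, had 64.8, 64.3 and 64.9 CPM in sgCtrL and 16.9, 20.3 and 16.2 CPM in Sin3Bsg1 (log2 fold change -1.86, standard error 0.067, edgeR adjusted p = 1.04e-10). Fbln1, fibulin-1 of elastic and basement membrane matrix, had 242, 246 and 228 CPM in sgCtrL and 147, 152 and 139.8 CPM in Sin3Bsg1 (log2 fold change -0.71, standard error 0.078, edgeR adjusted p = 9.299e-06). The rises included Thbs2, an antiangiogenic thrombospondin, from 8.79 to 27.4 CPM and Ccn2, a target of YAP and TGF-β, from 21.3 to 38.2 CPM. Sparc, a matricellular collagen-binding protein, fell from 255 to 211 CPM. The summed fibroblast markers were lower in Sin3Bsg1 as well (267 to 275 against 233 to 245 CPM), but most of that sum is Pdgfra, which fell. Of the 5 fibroblast markers tested 2 rose and 1 fell, with a median log2 fold change of 0.44, and 1 of the rises held. Thy1 and Postn were at 0, and the part of these markers in the matrix genes was not tested.

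Metalloproteinases fell more often than they rose. Of 28 tested of 37 listed, 9 fell and 3 rose, with a median log2 fold change of -0.077, and 8 of the falls held. Mmp3, stromelysin-1, had 23.4, 17.5 and 19.7 CPM in sgCtrL and 7.77, 9.397 and 7.22 CPM in Sin3Bsg1 (log2 fold change -1.31, standard error 0.14, edgeR adjusted p = 7.46e-06). Adamts5, an aggrecanase, had 8.898, 14.2 and 10.7 CPM in sgCtrL and 3.46, 3.74 and 3.96 CPM in Sin3Bsg1 (log2 fold change -1.61, standard error 0.15, edgeR adjusted p = 2.05e-06). Adamts9, which cleaves versican, fell from 109 ± 1.74 to 62.5 ± 2.24 CPM (SD, n = 3). The collagenase Mmp13 fell from 888 to 759.8 CPM (log2 fold change -0.22). Mmp28, epilysin, an epithelial metalloproteinase, rose from 13.2 to 26.97 CPM.

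Hedgehog genes were among the largest falls. In this pathway a Hedgehog ligand relieves the receptor PTCH1 from blocking SMO, and GLI factors carry the signal, with GLI3 acting largely as a repressor when no ligand is bound. Of 12 tested genes of 14 listed, 4 fell and none rose (median -0.13). Hhip, a membrane protein that binds and sequesters Hedgehog ligands, had 22.2, 20.4 and 22.4 CPM in sgCtrL and 2.86, 2.96 and 2.02 CPM in Sin3Bsg1 (log2 fold change -3.05, standard error 0.15, edgeR adjusted p = 1.78e-09). Gli3 had 8.898, 10.1 and 10.5 CPM in sgCtrL and 1.599, 1.52 and 1.38 CPM in Sin3Bsg1 (log2 fold change -2.71, standard error 0.16, edgeR adjusted p = 1.36e-08). The signal transducer Smo fell from 97.8 to 81.3 CPM and the co-receptor Gas1 from 48.8 to 39.4 CPM. The falls of Hhip and Gli3 were several-fold, those of Smo and Gas1 were under 1.5-fold, and that of Gas1 did not hold. Its adjusted p reached 0.0887 without Sin3Bsg1 replicate 3 and was also above 0.05 without Sin3Bsg1 replicate 2, sgCtrL replicate 2 or sgCtrL replicate 3. Gli1, the usual transcriptional readout of the pathway, had 7 to 24 counts in sgCtrL and 14 to 37 in Sin3Bsg1 and did not pass the test (edgeR adjusted p = 0.675).

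Other developmental pathways held single large changes. Of 20 Wnt genes tested 5 rose and 2 fell (median 0.032), 35% against 17.2% called among all genes. Wnt5b, a ligand of the β-catenin-independent branch, had 8.197, 7.01 and 7.75 CPM in sgCtrL and 2.09, 2.74 and 2.15 CPM in Sin3Bsg1 (log2 fold change -1.72, standard error 0.22, edgeR adjusted p = 4.65e-05). Wnt10a, a β-catenin-dependent ligand, had 3 to 4 counts in each sgCtrL library and 86 to 112 counts in each Sin3Bsg1 library (edgeR adjusted p = 4.23e-05). Sfrp1, a secreted Wnt antagonist, fell from 48.5 to 30.1 CPM. Of 26 genes of TGF-β, BMP and activin signalling 2 rose and 5 fell (median 0.030), 26.9% against 17.2% called among all genes. Fst, follistatin, which neutralizes activin, had 13.4, 12.7 and 13.7 CPM in sgCtrL and 26.9, 26.1 and 26.8 CPM in Sin3Bsg1 (log2 fold change 1.01, standard error 0.069, edgeR adjusted p = 5.74e-08). Ltbp2, a protein of microfibrils, had 126, 120.0 and 119.7 CPM in sgCtrL and 238, 245 and 231 CPM in Sin3Bsg1 (log2 fold change 0.96, standard error 0.056, edgeR adjusted p = 1.002e-08). The receptors Tgfbr1 (207 to 148 CPM) and Tgfbr3 (56.04 to 37.2 CPM) were lower. Of 16 Hox genes tested, 3 fell and none rose (median -0.19), 18.75% against 17.2% called among all genes. The falls that held were those of Hoxb8, from 1.77 to 0.407 CPM, and Hoxb3, from 2.48 to 0.903 CPM. Axon guidance genes fell 10 times and rose 6 times among 32 tested (median -0.092), 50% against 17.2% called among all genes. Of these calls 7 falls and 4 rises held. The change differed between the experiments for 10 of the genes called, and 4 were called in the opposite direction in the untreated experiment. The falls that held included the ligand Sema3d, from 20.4 to 9.8 CPM, and the receptor Plxnb1, from 6.97 to 3.43 CPM.

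Some genes of antigen presentation were higher in these libraries, and most were not called. MHC class I molecules carry peptides that the proteasome makes and that TAP moves into the endoplasmic reticulum, and IFNγ raises nearly all of these parts. Of 23 tested genes of the list, 9 rose and 1 fell, 43.5% against 17.2% called among all genes. The median log2 fold change was 0.21, and the calls of 6 rises held. In the untreated experiment the same list had 5 higher and 5 lower genes and a median of -0.018. H2-K1, a classical class I heavy chain, had 14.4, 14.4 and 13.4 CPM in sgCtrL and 27.6, 27.97 and 24.98 CPM in Sin3Bsg1 (log2 fold change 0.93, standard error 0.064, edgeR adjusted p = 6.305e-08). H2-D1, the other classical chain, had 65.7, 71.6 and 68.4 CPM in sgCtrL and 99.5, 95.5 and 92.3 CPM in Sin3Bsg1 (log2 fold change 0.48, standard error 0.050, edgeR adjusted p = 5.63e-06). The non-classical H2-Q4 rose from 2.78 to 7.003 CPM and H2-T23 from 12.3 to 18.1 CPM. In each of these the groups did not overlap, as for 39.2% of all genes tested, and the H2 genes are near-copies among which reads may be split. The peptide transporter rose in both chains, Tap1 from 2.15 ± 0.204 to 3.83 ± 0.4498 CPM and Tap2 from 8.94 ± 0.838 to 14.4 ± 0.395 CPM (SD, n = 3). Nlrc5, the class I transactivator, was at 1.95 and 1.02 CPM, a fall (-0.92) that kept its call only without sgCtrL replicate 2 and had an adjusted p of up to 0.129 in the other fits without a library.

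Interferon-stimulated genes moved in both directions. Of the 44 tested, 7 rose and 4 fell, 25% against 17.2% called among all genes. Several, such as Rsad2 with 0 to 4 counts in each library without IFNγ, passed the filter only by their level with IFNγ. With the 6 libraries alone 35 were tested, and 8 rose and 4 fell, with a median log2 fold change of 0.10. Iigp1, an immunity-related GTPase that attacks vacuoles of intracellular parasites, had 49.8, 45.1 and 47.2 CPM in sgCtrL and 17.2, 19.7 and 21.5 CPM in Sin3Bsg1 (log2 fold change -1.28, standard error 0.066, edgeR adjusted p = 3.12e-09). Its clustered relative Gm4841, which is not in the list, fell from 4.35 to 1.66 CPM, and reads may be shared between them. Cd274, which encodes the checkpoint ligand PD-L1, had 19.2, 17.7 and 18.8 CPM in sgCtrL and 12.3, 13.7 and 12.6 CPM in Sin3Bsg1 (log2 fold change -0.53, standard error 0.067, edgeR adjusted p = 4.21e-05). Gbp2, a guanylate-binding protein, rose from 7.13 to 11.2 CPM, and Jak2, the kinase of the IFNγ receptor, from 116 to 142 CPM. Cd274 was thus lower in each Sin3Bsg1 library while H2-K1 and H2-D1 were higher, and groups without overlap were seen for 39.2% of all genes tested.

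Of 18 chemokines tested of 29 listed, 3 rose and none fell, 16.7% against 17.2% called among all genes. The filter ran over all 12 libraries, and Cxcl9, Cxcl10, Cxcl11 and Ccl8 passed it with 0 to 5 counts in each library without IFNγ. With the 6 libraries alone 13 were tested, and 4 rose and 1 fell (median 0.21). Cxcl16, a membrane-bound ligand of CXCR6, had 37.3, 39.3 and 34.2 CPM in sgCtrL and 54.98, 58.04 and 58.2 CPM in Sin3Bsg1 (log2 fold change 0.63, standard error 0.062, edgeR adjusted p = 3.105e-06). Cx3cl1, fractalkine, had 14.1, 13.7 and 14.1 CPM in sgCtrL and 20.6, 21.1 and 19.6 CPM in Sin3Bsg1 (log2 fold change 0.55, standard error 0.064, edgeR adjusted p = 1.59e-05). Ccl20, the ligand of CCR6, had 2.696, 2.04 and 2.35 CPM in sgCtrL and 6.93, 7.48 and 6.41 CPM in Sin3Bsg1 (log2 fold change 1.56, standard error 0.24, edgeR adjusted p = 2.57e-04). All 3 calls held. Of 18 cytokine genes 5 rose and 1 fell (median 0.092), and 3 rises were left without sgCtrL replicate 2 or Sin3Bsg1 replicate 2. Csf1, the growth factor of macrophages, had 96.6, 94.3 and 88.98 CPM in sgCtrL and 127, 129 and 127 CPM in Sin3Bsg1 (log2 fold change 0.45, standard error 0.043, edgeR adjusted p = 2.098e-06), and Spp1, osteopontin, rose from 3193 to 3675 CPM. Csf3, the growth factor of granulocytes, fell from 2.102 to 0.79 CPM.

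Cell-cycle genes under E2F and the DREAM complex, which the SIN3B complex is known to help silence in resting cells, were lower rather than higher, by small amounts. Of 35 genes tested 10 fell and none rose, 28.6% against 17.2% called among all genes, with a median log2 fold change of -0.12. Top2a, the topoisomerase of dividing cells, had 870.4, 845 and 845 CPM in sgCtrL and 728, 728 and 761 CPM in Sin3Bsg1 (log2 fold change -0.21, standard error 0.037, edgeR adjusted p = 0.00101). Aurka, a mitotic kinase, had 78.95, 77.4 and 83.6 CPM in sgCtrL and 64.95, 67.04 and 66.9 CPM in Sin3Bsg1 (log2 fold change -0.27, standard error 0.051, edgeR adjusted p = 0.00142). Of the 10 falls only those of Top2a, Aurka and Cdk1 (-0.24) held, with 4 falls left without sgCtrL replicate 1 and 5 without sgCtrL replicate 3 or Sin3Bsg1 replicate 2. The fit on 6 libraries alone called 18 lower and 2 higher. The D-type cyclins rose, Ccnd1 from 206 ± 3.05 to 277 ± 5.45 CPM and Ccnd2 from 274 ± 6.05 to 381 ± 7.54 CPM (SD, n = 3). Among the 28 genes of the Sin3 complex and its partners 1 rose and 3 fell, 14.3% against 17.2% called among all genes (median -0.054). Sinhcaf, a subunit of the SIN3-HDAC complex, had 24.2, 27.1 and 28.1 CPM in sgCtrL and 12.1, 11.5 and 12.5 CPM in Sin3Bsg1 (log2 fold change -1.14, standard error 0.090, edgeR adjusted p = 2.89e-07), and Hdac2 went from 104 to 89.1 CPM but lost its call without Sin3Bsg1 replicate 2. In that list 1 gene was called without Sin3Bsg1 replicate 2, 2 genes without Sin3Bsg1 replicate 1, and 4 higher and 7 lower in the fit on 6 libraries. Among 22 histone acetyltransferases, deacetylases and readers 2 rose and 4 fell (median -0.028), 27.3% against 17.2% called among all genes. The falls included Hdac7 (-0.29) and Hdac4 (-0.25). Of 17 tested genes of neurons that REST represses, 2 rose and 4 fell (median 0.0031, or -0.21 over the 10 with at least 10 counts in every library), with Tubb3 lower at 14.7 and 9.44 CPM, and 1 rise and 2 falls were left without sgCtrL replicate 1.

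Growth factor receptors and metabolism changed in part. Of 25 EGFR and FGF genes 7 rose and 3 fell (median -0.0093). Egfr had 42.6, 35.6 and 40.6 CPM in sgCtrL and 20.9, 25.7 and 21.8 CPM in Sin3Bsg1 (log2 fold change -0.79, standard error 0.083, edgeR adjusted p = 5.202e-06), and Fgfr1 fell from 133 to 89.6 CPM. Erbb3, the signalling partner of ERBB2, rose from 12.8 to 21.5 CPM and the ligand Fgf1 from 9.19 to 19.5 CPM. Of 26 genes of glycolysis and the hypoxia response 8 rose and none fell (median 0.083), 30.8% against 17.2% called among all genes. Of these calls 4 held, the 4 left without sgCtrL replicate 3, Sin3Bsg1 replicate 1 or Sin3Bsg1 replicate 2. In the untreated experiment 9 genes of this list were higher and 5 lower (median 0.024). The change differed between the experiments for 7 of the 8, and 1 of the 8 was called in the opposite direction there. Hk2, which traps glucose in the cell, had 163, 169.9 and 175 CPM in sgCtrL and 240.4, 236 and 241 CPM in Sin3Bsg1 (log2 fold change 0.50, standard error 0.043, edgeR adjusted p = 8.64e-07). Pfkp, the platelet isoform of phosphofructokinase, had 37.2, 37.3 and 36.6 CPM in sgCtrL and 57.1, 58.3 and 56.2 CPM in Sin3Bsg1 (log2 fold change 0.63, standard error 0.048, edgeR adjusted p = 2.002e-07). Of 26 glutathione and NRF2 target genes 5 rose and 8 fell (median -0.096), with 4 falls left without sgCtrL replicate 1 or Sin3Bsg1 replicate 3, and 14 were higher and 8 lower in the untreated experiment. Among the falls was Srxn1, sulfiredoxin, at 91.1, 90.5 and 92.8 CPM in sgCtrL and 59.2, 60.3 and 66.5 CPM in Sin3Bsg1 (log2 fold change -0.56, standard error 0.057, edgeR adjusted p = 4.43e-06) and the cystine transporter Slc7a11 falling from 100.1 to 72.6 CPM. Of 25 genes of cholesterol synthesis and uptake 1 rose and 4 fell (median -0.017), 20% against 17.2% called among all genes. Among the falls was Abca1, the exporter of cholesterol, which went from 77.8 to 47.9 CPM. In the untreated experiment 18 genes of that list were higher and 2 lower (median 0.24). Of 26 genes of the integrated stress response 3 rose, 11.5% against 17.2% called among all genes (median 0.087), including Asns, asparagine synthetase, from 55.02 to 68.02 CPM, against 7 rises and 1 fall in the fit on 6 libraries. Of 19 cyclins, CDK inhibitors and pocket proteins 2 rose and 2 fell (median -0.033), 21.05% against 17.2% called among all genes. Neither fall, of Cdk2 (-0.18) and Cdk4 (-0.13), was called in any of the 6 fits without a library.

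The calls were unevenly spread over the chromosomes. Among genes at 5 CPM or more in the higher group with a position on GRCm39 (10567 genes), 986 were called higher and 1231 lower, so 44.5% of these calls were higher. On chromosome 14, 123 genes were higher and 12 lower (91.1% higher), and 83.7% of its 350 genes had a positive log2 fold change, with a median of 0.16. On chromosome 16, 16 genes were higher and 97 lower (14.2% higher), with a median of -0.12 over 335 genes. Chromosome 5 had 37 higher and 131 lower and chromosome 13 had 14 higher and 58 lower. Other chromosomes leaned too, such as 2 (46 higher and 158 lower) and 15 (20 and 85). Calls were mostly higher on chromosomes 1, 6, 7, 9 and 17, where 65.65% to 69.83% of them were higher. The skew was similar with IFNγ, with medians of 0.16 on chromosome 14 and -0.090 on chromosome 16. In the untreated experiment chromosome 16 had 29 genes higher and 115 lower and chromosome 5 had 56 and 276, whereas chromosome 13 had 59 and 49 and chromosome 14 had 85 and 43, with a median of 0.045. Neighboring genes share a chromosome and copy number was not measured, and whether it differs between the sgCtrL and Sin3Bsg1 cells was not tested.

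**Figure D3:**
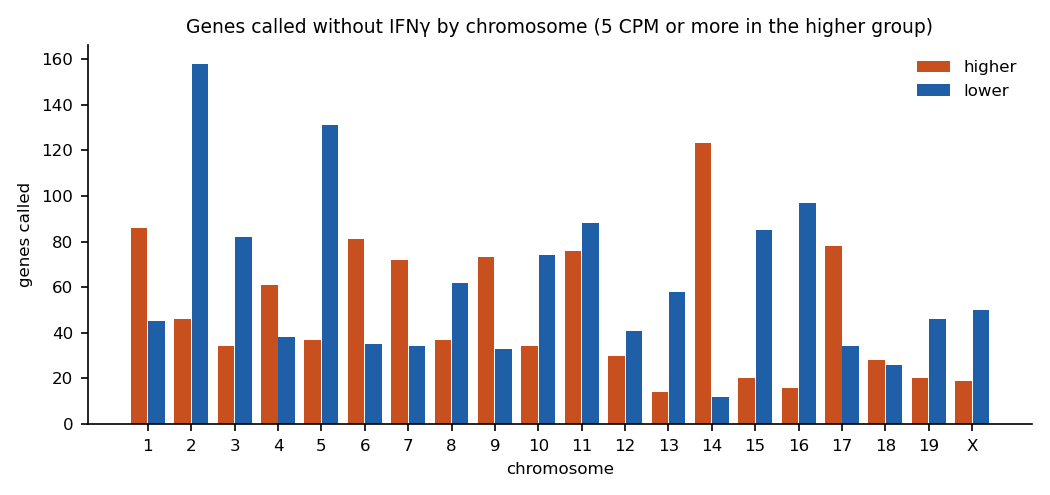
Number of genes called higher (orange) and lower (blue) in Sin3Bsg1 without IFNγ on each chromosome, among genes at 5 CPM or more in the higher group. Chromosome 14 has 123 higher and 12 lower, and chromosome 16 has 16 higher and 97 lower.

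A run of 4 adjacent genes on chromosome 6 fell 2-fold or more. It was the longest run of neighbors among genes at 5 CPM or more, and it was singled out after its values were seen. In order along GRCm39 the genes were Caprin2 (chr6:148743985-148797767), Sinhcaf (chr6:148822532-148847996), Dennd5b (chr6:148889569-149003390) and Etfbkmt (chr6:149041314-149052674). Caprin2, an RNA-binding protein, had 78.5, 73.1 and 68.8 CPM in sgCtrL and 33.4, 32.6 and 34.01 CPM in Sin3Bsg1 (log2 fold change -1.14, standard error 0.057, edgeR adjusted p = 2.35e-09). Dennd5b, a Rab exchange factor, had 10.8, 10.5 and 12.1 CPM in sgCtrL and 3.198, 3.61 and 4.34 CPM in Sin3Bsg1 (log2 fold change -1.58, standard error 0.14, edgeR adjusted p = 1.11e-06). Etfbkmt, a mitochondrial lysine methyltransferase, had 56.1, 52.8 and 55.1 CPM in sgCtrL and 21.2, 24.5 and 23.1 CPM in Sin3Bsg1 (log2 fold change -1.25, standard error 0.067, edgeR adjusted p = 4.41e-09). The groups did not overlap for any of the 4 genes, as for 39.2% of all genes tested. The nearest measured neighbors moved less, with log2 fold changes of -0.17 for Ipo8 (called in 1 of the 6 fits without a library, the one without Sin3Bsg1 replicate 3) on one side and -0.27 for Amn1 (edgeR adjusted p = 0.185) and -0.53 for Resf1 on the other. In the untreated experiment the 4 genes had log2 fold changes of -0.57, -0.18, 0.23 and -0.42, in the same order, and with IFNγ of -0.96, -1.15, -1.66 and -1.46.

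The untreated experiment gave a comparison of the same guides with other libraries. There 4549 of 14820 genes were called (30.7%). Of the 2469 genes called without IFNγ and tested in both, 1964 had the same direction in the untreated experiment (79.5%), against 63.1% of all 13848 genes tested in both. Across these 13848 genes the log2 fold changes had a Pearson correlation of 0.32 and a Spearman correlation of 0.36, as a description only, since genes are not replicates. Genes called in both experiments numbered 1478, which is 59.9% of the calls made here and 33.6% of those made there. Of these, 1323 had the same direction and 155 the opposite. The change itself differed between the experiments for 2076 of the 15264 genes tested (13.6%) in a joint fit of the 10 libraries.

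Of the 12 largest rises 10 had the same direction in the untreated experiment, and the size of the change differed for 7 of the 12. Log2 fold changes there were 0.12 for Plxdc2, 0.59 for Fcgbp and 0.19 for Serpina3n, each with the difference called, and that of Prph was -0.02. Other genes moved in the same direction in both. The log2 fold change of Clu was 1.76 here and 1.91 in the untreated cells, that of Cdh1 0.92 and 1.08, that of Hnf4a 0.96 and 0.86, and that of Reg3b 2.52 and 2.91. The difference in size was called for Clu (edgeR adjusted p = 0.0378) and Cdh1, and was not called for Reg3b (edgeR adjusted p = 0.161). Sall1 stood at -3.01 and -3.000 although it had 2.74 and 3.38 CPM in sgCtrL and 0.309 and 0.451 CPM in Sin3Bsg1 in the untreated libraries. Of the 13 epithelial keratin and junction genes that rose, and the 2 that fell, 13 were called there too in the same direction, and Cldn2 was called in the opposite direction (-0.19 and 0.57). Of the 12 largest falls 11 had the same direction in the untreated experiment, and the size of the change differed for 10 of the 12. Hhip had 1.14 and 1.35 CPM in sgCtrL and 0.866 and 1.13 CPM in Sin3Bsg1 in the untreated libraries, a low level already in the control (log2 fold change -0.32, edgeR adjusted p = 0.533).

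Several extracellular matrix genes were called in opposite directions. Col1a1 rose without IFNγ and fell in the untreated experiment, where it had 16.6 and 17.99 CPM in sgCtrL and 5.57 and 5.697 CPM in Sin3Bsg1, a difference between the changes of 2.99 on the log2 scale (standard error 0.12, edgeR adjusted p = 1.38e-12). Ltbp2 had 119.7 and 122 CPM in sgCtrL and 60 and 62.2 CPM in Sin3Bsg1 in the untreated libraries, so it halved there and doubled here (difference 1.96, standard error 0.053, edgeR adjusted p = 3.01e-15). The control levels of Ltbp2 were almost equal in both experiments, at 122 CPM here. Further genes that rose here and fell there were Nhs (difference 3.86), Frzb (difference 2.65, its rise here lost without Sin3Bsg1 replicate 2) and Col6a2 (difference 1.601). Muc5b, in contrast, had 18.2 and 15.5 CPM in sgCtrL and 36.3 and 37.95 CPM in Sin3Bsg1 in the untreated libraries (difference -2.17, standard error 0.092, edgeR adjusted p = 1.91e-12), so it fell here and rose there. The type IV collagens Col4a1 (-0.31 and 0.09) and Col4a2 (-0.25 and 0.27) and Slc7a11 (-0.46 and 0.76) also changed sign. Of the 10 interstitial collagen and processing genes called here, 4 were called in the opposite direction there, and in the untreated experiment that list had 20 lower genes and 1 higher.

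The control cells of the experiments also differed from each other. Of 10777 genes at 5 CPM or more in either sgCtrL group, 354 had at least 2-fold more CPM without IFNγ than in the untreated experiment and 532 at least 2-fold less. Coro2b, a coronin of the actin cytoskeleton, averaged 3.01 CPM in sgCtrL without IFNγ and had 175 and 177 CPM in sgCtrL and 201 and 198 CPM in Sin3Bsg1 in the untreated libraries. CPM were scaled apart in each experiment, no library is shared between them, and experiment and state of the cells cannot be told apart.

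**Figure D4:**
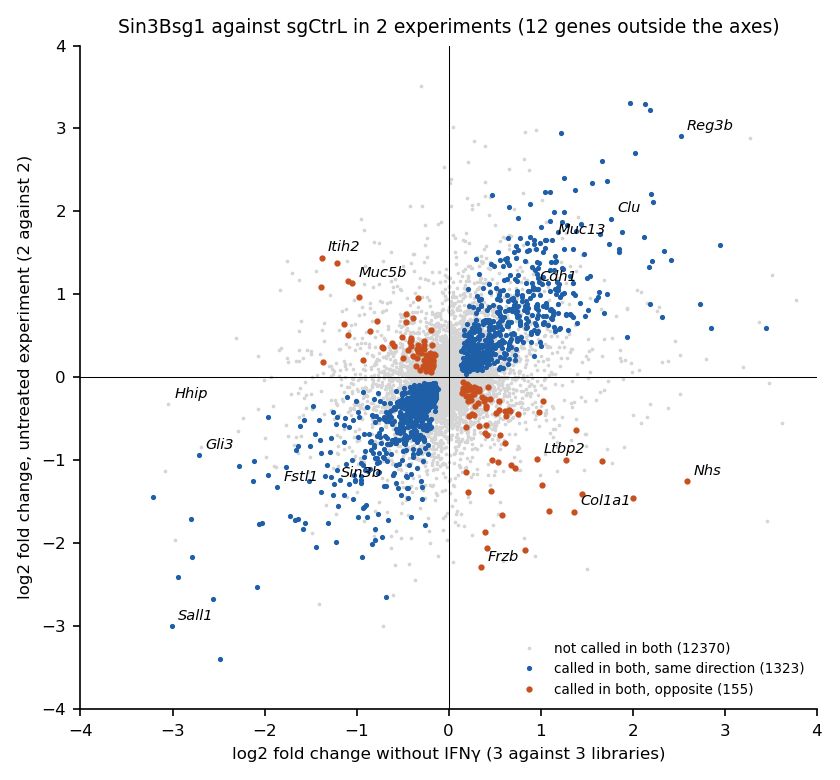
Log2 fold change of Sin3Bsg1 against sgCtrL without IFNγ (horizontal, 3 against 3 libraries) and in the untreated experiment (vertical, 2 against 2). Of the genes called in both, 1323 lie in the quadrants of like sign (blue) and 155 in those of opposite sign (orange), among them Col1a1, Nhs and Muc5b, and 12 genes lie outside the axes.

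Adding IFNγ left most of the knockout's changes in place. Of the 2568 genes called without IFNγ, 2505 had the same direction with IFNγ (97.5%), against 74.1% of all genes, and 1610 were called in both, with 2 in opposite directions. The change differed between the conditions for 17 genes (0.114% of those tested). For 5 of them the rise in the knockout was larger without IFNγ. The log2 fold change of H2-K1 was 0.93 without and 0.30 with IFNγ (difference 0.63, standard error 0.082, edgeR adjusted p = 0.00931), and that of H2-Q4 was 1.32 and 0.50 (difference 0.82). Fst (1.01 and 0.43), Tgm2, the tissue transglutaminase (0.69 and 0.14), and Ehf (0.54 and 0.16) followed the same order. The GTPases Iigp1 and Gbp9 went the other way, lower in the knockout without IFNγ and nearer to the control with it, whereas their relative Gbp2 rose. The log2 fold change of Iigp1 was -1.28 without and -0.17 with IFNγ (difference -1.12, standard error 0.087, edgeR adjusted p = 2.05e-05), that of Gbp9 -0.96 and -0.13, and that of the checkpoint ligand gene Cd274 was -0.53 and -0.05 (difference -0.47, edgeR adjusted p = 0.0454). The number of such genes was 1 without Sin3Bsg1 without IFNγ replicate 2 and 33 without sgCtrL with IFNγ replicate 1, so the 17 depend on single libraries.

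**Figure D5:**
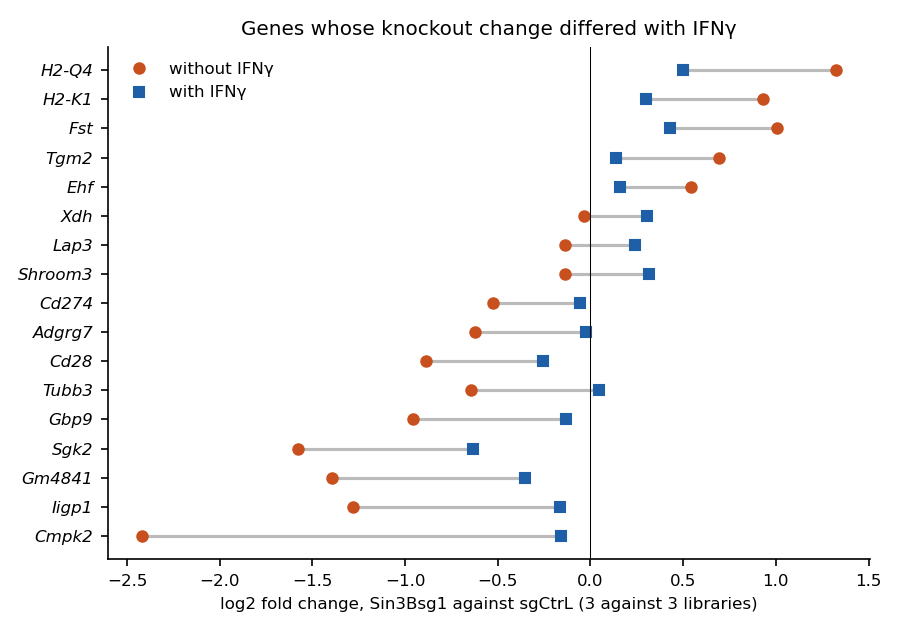
Log2 fold change of Sin3Bsg1 against sgCtrL without IFNγ (orange circles) and with IFNγ (blue squares) for the 17 genes whose change differed between the conditions (edgeR adjusted p under 0.05), 3 libraries a group. Iigp1 lies at -1.28 without and -0.17 with IFNγ, and H2-K1 at 0.93 and 0.30.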

How the data were processed

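RNA-seq of KPC1199 cells was analysed in the 6 libraries without IFNγ, beside 6 with IFNγ and 4 of an untreated experiment. The values the authors deposited are estimated counts for each gene, not normalized, in 1 table per experiment (56980 and 55738 features, of which 1542 and 1725 have no gene name). Columns of group means (4 and 2) were left out. The sources differ on how the counts were made, since the submitters' processing notes name fastp, HISAT2, StringTie, DESeq2 and mm39 and the paper's methods name mm9, HISAT2 and featureCounts. Versions and the strand setting are not given in the sources used here, so reads of overlapping genes cannot be told apart. The columns headed lacZ were assigned to sgCtrL by elimination, the Sin3B guide being the other one present.

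Counts were rounded and tested with edgeR 4.0.16 in R 4.3.3 (TMM, filterByExpr, glmQLFit, glmQLFTest, two-sided) over the 12 libraries of the IFNγ experiment with 1 mean per group, Benjamini-Hochberg adjustment over 14913 genes and a threshold of 0.05. Variation between replicates was 6.78%. Standard errors were derived from the quasi-likelihood F. The 10 libraries without IFNγ were fitted jointly to test the difference between experiments. DESeq2 1.42.0, other scalings, filters and sample sets were alternatives, and the fit was tested on simulated data. Intervals were not computed, and a level of 3 counts or fewer is given as counts.

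Named genes are Sin3b, the 12 largest rises and the 12 largest falls among called genes with 5 CPM or more in the higher group, no overlap and a symbol that is not a predicted name, the 12 called genes with the most CPM in sgCtrL among those changed 2-fold, up to 3 rises and 3 falls of each list, and, in lists of 30 or fewer, members whose role is given. Others, such as those of the promoter search, the chromosome 6 run, the markers and the comparisons between experiments, were named after their values were seen. Some genes are not reported here by name, though list counts include them. Members and lists were chosen with earlier results of these data known. Positions are from GENCODE on GRCm39, matched by identifier, and promoters from RefSeq on GRCm38.p6, matched by symbol. Further steps ran in Python 3.11.15 (matplotlib 3.10.9, numpy 2.4.6, pandas 2.3.3).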

Additional observations from a re-analysis of the deposited data

Results flagged for a closer look

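The change between sgCtrL and Sin3Bsg1 differed between the experiments for 2076 genes in the joint edgeR fit of 10 libraries, and between cells without and with IFNγ for 17 genes. Each value that follows is a log2 fold change without IFNγ minus that in the other condition, with an edgeR adjusted p under 0.05. No explanation of these differences was tested.

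Against the untreated experiment, named genes that were called in opposite directions are given here. Among matrix genes the difference was 2.99 for Col1a1, 1.96 for Ltbp2, 1.601 for Col6a2, -0.38 for Col4a1 and -0.51 for Col4a2. Among other secreted proteins it was 2.65 for Frzb, 0.72 for Csf1, 0.30 for Spp1, -2.17 for Muc5b and -2.81 for Itih2. Among membrane and intracellular proteins it was 3.86 for Nhs, -1.28 for Alcam, -1.13 for Itgb7, -0.75 for Cldn2, -1.21 for Slc7a11 and -1.53 for Coro2b.

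Against the cells with IFNγ, the rise without IFNγ was larger by 0.63 for H2-K1, 0.82 for H2-Q4, 0.58 for Fst, 0.56 for Tgm2 and 0.39 for Ehf. The difference was negative for Iigp1 (-1.12), Gm4841 (-1.04), Gbp9 (-0.82), Cd274 (-0.47) and Tubb3 (-0.69), which fell without IFNγ.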

How the results depend on the processing

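The count of 2568 genes was 2479 to 2679 with DESeq2, DESeq2 size factors, thinned libraries, no filter or a minimum of 10 counts, and 1864 to 2066 with 1 of the 6 libraries left out. The fit on the 6 libraries without IFNγ alone called 3996 genes, 1916 of them higher, and shared 2536 with the 2568. Without sgCtrL with IFNγ replicate 1, an alternative chosen after seeing the data, 3529 were called, all 2568 among them. The 17 genes whose change differed with IFNγ became 32 with DESeq2 and ranged from 1 to 33 with 1 library left out. The cause was not tested. Replicate numbers did not pair the libraries, since same-numbered libraries of the groups correlated at -0.082, -0.010 and 0.085 over 6185 genes, and with the replicate block 2511 genes were called and 13 differed with IFNγ. Beside the list counts in the report, the fit on 6 libraries gave 5 higher and 5 lower for histone acetyltransferases, deacetylases and readers, 4 and 6 for the epithelial-mesenchymal transition and 3 and 4 for cyclins. Of 150 named genes that were called, 2 (Cdk2 and Cdk4) lost their call in at least 1 of the 7 alternatives that keep all libraries or all 6 without IFNγ, and 14 when 1 library was left out, and none of them changed direction. Genes that an alternative's filter removed were not counted as lost. Tff2 and Wnt10a, with under 10 counts in each sgCtrL library, were thus not tested with a minimum of 10 counts. The block changed the call of no named gene but those 2. The log2 fold change of Gli1, which was not called, was -0.056 to 0.957 with 1 library left out, below 0 without Sin3Bsg1 replicate 1. Depth limits genes with few counts, such as Gli1 and Tff2.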

Other observations

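Some genes outside the lists were lower without IFNγ and higher in the untreated experiment, with the difference itself called. Itih2, a chain of the inter-alpha-trypsin inhibitor that stabilizes hyaluronan, had 9.17, 7.01 and 7.49 CPM in sgCtrL and 3.35, 2.61 and 3.096 CPM in Sin3Bsg1 without IFNγ and 1.602 and 1.39 CPM in sgCtrL and 3.93 and 4.22 CPM in Sin3Bsg1 in the untreated libraries (difference -2.81, standard error 0.26, edgeR adjusted p = 2.42e-07). Alcam, an adhesion molecule that binds CD6, had log2 fold changes of -0.33 and 0.96 (difference -1.28, edgeR adjusted p = 9.01e-12). Itgb7, an integrin subunit best known from gut-homing lymphocytes, had -0.93 and 0.21 (difference -1.13, edgeR adjusted p = 4.65e-07). These genes were named after their values were seen.

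Other pairs of adjacent genes changed 2-fold or more in the same direction. Eya1, a transcriptional cofactor and phosphatase, fell from 40.1 to 18.3 CPM beside Trpa1, an ion channel for irritants, which fell from 8.01 to 2.71 CPM. Ephx2, soluble epoxide hydrolase, rose from 5.67 to 11.9 CPM beside Clu, and Islr2 rose from 4.57 to 10.8 CPM beside Stra6.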
